A study of Bubalus bubalis with 12 samples.

Results

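Mitochondrial fatty acid oxidation in the ruminal wall was followed through 9 genes: the nuclear receptor PPARA, the carnitine palmitoyltransferases CPT1A and CPT2, the β-oxidation enzymes ACADM, ACADVL, HADHA and HADHB, and the PPAR target genes PDK4 and ANGPTL4. These genes were taken by their names, and all 9 were found among the 34037 genes of the deposited table. Ruminal wall was collected at slaughter from 12 Italian Mediterranean dairy buffaloes (Bubalus bubalis), with 1 RNA-seq library of total RNA per animal. The control group (n = 6) was fed a total mixed ration (TMR), and the treated group (n = 6) received a TMR in which green ryegrass made up 30% of the diet (TMR + green feed). All animals were adult lactating females of the same herd, assigned to the groups at random. Protein and energy were balanced between the rations, but the treated ration also held less corn silage and alfalfa hay, no soybean meal and a larger share of fat. Green forage and these other components cannot be told apart in a difference between the groups.

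Long-chain fatty acids are activated to acyl-CoA in the cytosol and cross the mitochondrial membranes as acylcarnitines. CPT1A forms the acylcarnitine at the outer membrane, and CPT2 turns it back into acyl-CoA at the inner membrane. Acyl-CoA dehydrogenases then start each turn of β-oxidation, with ACADVL acting on very long and ACADM on medium chains, and the trifunctional protein, built from HADHA and HADHB, carries out the later steps on long chains. PPARA is a fatty acid-activated receptor that binds DNA together with a retinoid X receptor and drives many of these genes. Among its targets, PDK4 phosphorylates and inhibits pyruvate dehydrogenase, which spares glucose, and ANGPTL4 is a secreted inhibitor of lipoprotein lipase. The ruminal epithelium is known to oxidise short-chain fatty acids, mainly butyrate, and to release ketone bodies.

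The libraries held 10531541 to 12948372 fragments counted on genes. Expression is given in FPKM, which relates the fragments of a gene to its length and to the counted fragments of the library. Comparisons between genes depend on the gene lengths used, worked out from the FPKM as 1531 bp (PPARA) to 4523 bp (CPT1A) among the 9. Those between animals depend on the library scale, since the FPKM summed to 484821.5 in treated replicate 1 and 600852.9 in treated replicate 6. The reads behind each value were worked out from the FPKM, and for the 9 genes they ranged from 111 reads (PPARA) to 7774 reads (HADHA) per animal. Markers of squamous epithelium, such as KRT5 and KRT15, had a summed level of 2879 to 5232 FPKM. The 10 smooth muscle markers summed to 29.7 to 51.6 FPKM in control animals against 16.9 to 42.3 FPKM in treated ones, and the 10 fibroblast markers to 53.2 to 292 FPKM and to 22.1 to 192 FPKM, respectively. In the treated group, 8 of the 8 smooth muscle markers tested had a negative log2 fold change (1 with a nominal p-value below 0.05), as had 10 of the 10 fibroblast markers (0 with a nominal p-value below 0.05), 6 of 7 endothelium markers, 5 of 5 leukocyte markers and 2 of 2 markers of enteric glia and neurons. Over all genes tested, 51.2% had a positive log2 fold change and 1.27% a nominal p-value below 0.05. Of the 7 adipocyte markers, ADIPOQ, LEP, PLIN1 and PCK1 were below 0.1 FPKM in all 12 animals. LIPE reached at most 0.36 FPKM and CIDEC at most 0.87 FPKM. The list summed to 16.4 to 40.6 FPKM in control animals against 17.1 to 35.4 FPKM in treated ones. Nearly all of this sum came from CIDEA, the remaining gene. The 8 endothelium markers summed to at most 36.4 FPKM, the 9 leukocyte markers to at most 55.8 FPKM and the 8 markers of enteric glia and neurons to at most 18.3 FPKM, with 0 of them at a nominal p-value below 0.05. The 6 skeletal or cardiac muscle markers found in the table summed to at most 2.28 FPKM. In whole tissue, fewer cells of a type and less RNA per cell cannot be told apart.

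The order of expression was HADHA, HADHB, ACADM, ACADVL, CPT1A, CPT2, PDK4, PPARA and ANGPTL4, from a mean of 203 FPKM for HADHA down to 6.42 FPKM for ANGPTL4. The β-oxidation enzymes and CPT1A thus stood in the upper part of the transcriptome, with 97.6% of the 12760 genes tested having a lower mean than HADHA and 93.4% a lower mean than CPT1A. For PPARA this share was 51.7%. Within animals, neighbours in this order were compared by a two-sided exact permutation test over all sign changes of the 12 differences, with Benjamini-Hochberg adjustment over the 8 pairs. For 7 pairs the adjusted p-value was between 0.000977 and 0.014. The largest of these was that of ACADVL and CPT1A, where ACADVL was higher in 10 of 12 animals and the mean log2 difference of 0.27 was smaller than its SD of 0.33. HADHB and ACADM could not be separated, since HADHB was higher in 7 of 12 animals by a mean of 1.07-fold (adjusted p = 0.119, exact). These genes also exchanged places in the control animals alone and in the order of median FPKM.

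**Figure D1:**
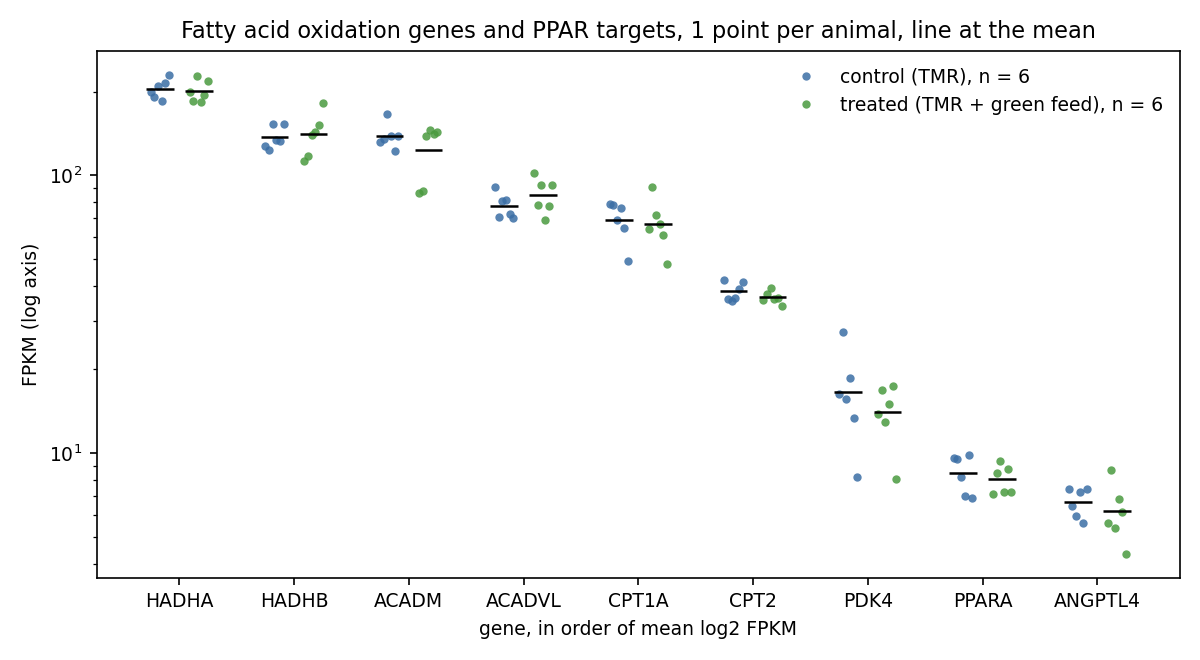
FPKM of the 9 genes on a log axis, with 1 point per animal (blue, 6 control animals; green, 6 treated animals) and a line at each group mean. The values of both groups overlapped for every gene, and the levels spanned from 4.34 FPKM for ANGPTL4 to 230.0 FPKM for HADHA.

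The genes differed in how much they varied between animals. CPT2 had a coefficient of variation of 6.70% over the 12 animals, and only 0.439% of the genes tested had a lower one. HADHA followed with 8.12%, a value that 1.36% of the genes tested fell below. At the other end, PDK4 had a coefficient of variation of 32.8% and a ratio of 3.38 between its highest and lowest animal, whereas this ratio was 1.24 for CPT2. The median over all genes tested was 23.7%, at a median level of 7.77 FPKM. Genes with fewer reads vary more by counting alone, and the shares were not adjusted for level.

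Whether green feed was accompanied by another level of these genes was tested with limma on log2(FPKM + 0.01) across all 12760 genes with enough reads, all 9 genes among them. Among these 9, a nominal p-value below 0.05 was found for 0 genes, beside 1.27% of all genes tested (162 genes, with 0.799% higher and 0.47% lower in treated animals), and 0 genes of the whole table had an adjusted p-value below 0.05 (smallest adjusted p = 0.9996, limma). The exact permutation test over the 924 ways to assign the animals, in which the smallest possible p-value is 0.00216, also gave 0 of 9 p-values below 0.05. Lower means in the treated group were seen for 7 genes and higher means for 2 genes (ACADVL and HADHB), with a median log2 fold change of -0.07 against 0.01 over all genes tested. The 95% intervals of the 9 log2 fold changes reached from -0.74 to 0.37, so that a 2-fold difference in either direction lay outside the interval of each of them. Among all genes tested, 84.8% had an interval of this kind. These intervals bound the difference of each gene and do not show that the groups were alike.

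**Figure D2:**
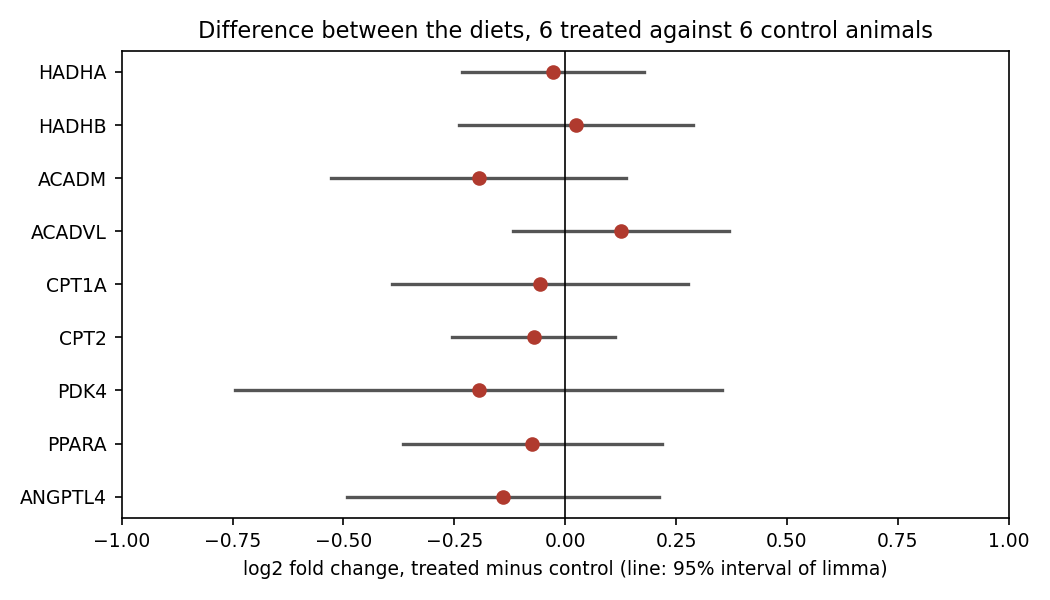
Log2 fold change of each gene, treated minus control (point), with the 95% interval of the limma fit (line), for 6 treated against 6 control animals. All 9 intervals include 0, with the widest for PDK4 (-0.74 to 0.35) and the narrowest for CPT2 (-0.25 to 0.11).

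PPARA (gene identifier 102390392), the receptor of the pathway, ranged in the control group from 6.88 to 9.85 FPKM with a median of 8.86 FPKM. In the treated group the range was 7.10 to 9.40 FPKM with a median of 7.88 FPKM, so that every treated animal lay within the control range. The means were 8.51 ± 1.35 FPKM (SD, n = 6) and 8.04 ± 0.975 FPKM (SD, n = 6), with a log2 fold change of -0.07 (SE 0.14, 95% interval -0.37 to 0.22). The exact permutation test gave p = 0.526 for this difference. PPARA was not the most abundant member of its family. PPARG, the family member best known from adipocytes, had 23.3 FPKM and was higher than PPARA in all 12 animals by 2.80-fold (adjusted p = 0.000627, exact permutation). PPARD, the broadly expressed member, had 5.48 FPKM and was lower than PPARA in 10 of 12 animals (1.61-fold, adjusted p = 0.00385, exact permutation). In reads the order was the reverse, with 202 to 689 per animal for PPARD against 111 to 185 for PPARA. The FPKM order of this pair thus rests on the gene lengths, which the p-value does not cover. The comparisons with PPARG and PPARD are 2 of 18 between paralogues, all made within animals by sign changes and adjusted together. Between the diets the log2 fold change was 0.27 (SE 0.30) for PPARD and 0.00 (SE 0.13) for PPARG, with exact permutation p-values of 0.426 and 0.996. For PPARD it was 0.09 without treated replicate 2, 0.46 without treated replicate 6 and -0.20 with the mean of smooth muscle and fibroblast markers as a covariate.

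CPT1A (102399372) carries out the step at which entry of long chains into mitochondria is controlled. Its control animals lay between 49.3 and 78.7 FPKM with a median of 72.6 FPKM, and its treated animals between 47.9 and 90.7 FPKM with a median of 65.4 FPKM. Control replicate 6 and treated replicate 6 were the lowest of their groups, and treated replicate 2 was the highest of all. The means of 69.3 ± 11.3 FPKM (SD, n = 6) and 67.0 ± 14.1 FPKM (SD, n = 6) gave a log2 fold change of -0.06 (SE 0.16, 95% interval -0.39 to 0.28; exact permutation p = 0.738). The other forms of this enzyme were scarce. CPT1B, the form of skeletal and heart muscle, had a mean of 1.12 FPKM, with 8 to 79 reads per animal, and was 66.6-fold lower than CPT1A within animals (adjusted p = 0.000627, exact permutation). CPT1C, known from neurons, had a mean of 0.209 FPKM and 0 to 29 reads per animal. CPT1B had the highest log2 fold change among the carnitine shuttle genes tested, 0.57 with an interval from -0.34 to 1.48 (exact permutation p = 0.253). This value was 0.21 without control replicate 6, in which CPT1B had 8 reads, and up to 0.76 without other single animals.

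CPT2 (102411862) ranged from 35.2 to 42.0 FPKM in the control group with a median of 37.7 FPKM. The treated animals lay between 33.9 and 39.2 FPKM with a median of 36.1 FPKM, and 1 of the 6 was above the control median. The means were 38.3 ± 2.91 FPKM and 36.4 ± 1.78 FPKM (SD, n = 6 each). This log2 fold change of -0.07 had the smallest standard error of the 9 genes (0.09, 95% interval -0.25 to 0.11), and the exact permutation test gave p = 0.216.

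ACADM (102408428), the medium-chain acyl-CoA dehydrogenase, had treated animals at separate levels. The control animals lay between 122 and 167 FPKM with a median of 136 FPKM. Among the treated animals, replicates 1 and 2 had 86.2 and 88.0 FPKM, below every control animal, while the remaining 4 lay between 138 and 145 FPKM, above the control median. The means were 139 ± 15.1 FPKM and 124 ± 28.3 FPKM (SD, n = 6 each), with a log2 fold change of -0.19 (SE 0.15, 95% interval -0.53 to 0.14; exact permutation p = 0.32). Without treated replicate 1 or 2 the log2 fold change was -0.10. The median, 139 FPKM, was in turn higher in the treated group. Treated replicates 1 and 2 also had the lowest summed fibroblast markers of all animals, 22.1 and 41.2 FPKM, and with the mean of smooth muscle and fibroblast markers as a covariate the log2 fold change of ACADM was 0.08. The part of these cells in the ACADM values was not tested beyond this fit.

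ACADVL (102405745), the dehydrogenase of very long chains, was 70.2 to 90.8 FPKM in the control group with a median of 76.6 FPKM, and 69.3 to 102 FPKM in the treated group with a median of 85.1 FPKM. A value above the control median was seen in 5 of 6 treated animals and a value above all control animals in 3 of them. The means were 77.8 ± 8.10 FPKM and 85.2 ± 12.1 FPKM (SD, n = 6 each), with a log2 difference of 0.13 (SE 0.11, 95% interval -0.12 to 0.37; exact permutation p = 0.251). Within the family of dehydrogenases, ACADS, which acts on short chains such as butyryl-CoA, had the highest level with 192 FPKM, followed by ACADM with 131 FPKM, ACADVL with 81.5 FPKM and ACADL, the long-chain form, with 40.5 FPKM. Within animals the steps of this order had adjusted p-values from 0.000627 to 0.0124 (exact permutation), although ACADM was above ACADS in 2 of 12 animals and ACADVL above ACADM in 1 of 12. ACADS varied more than the others, from 95.2 to 255 FPKM, and its lowest animals were control replicate 6 and treated replicate 6.

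**Figure D3:**
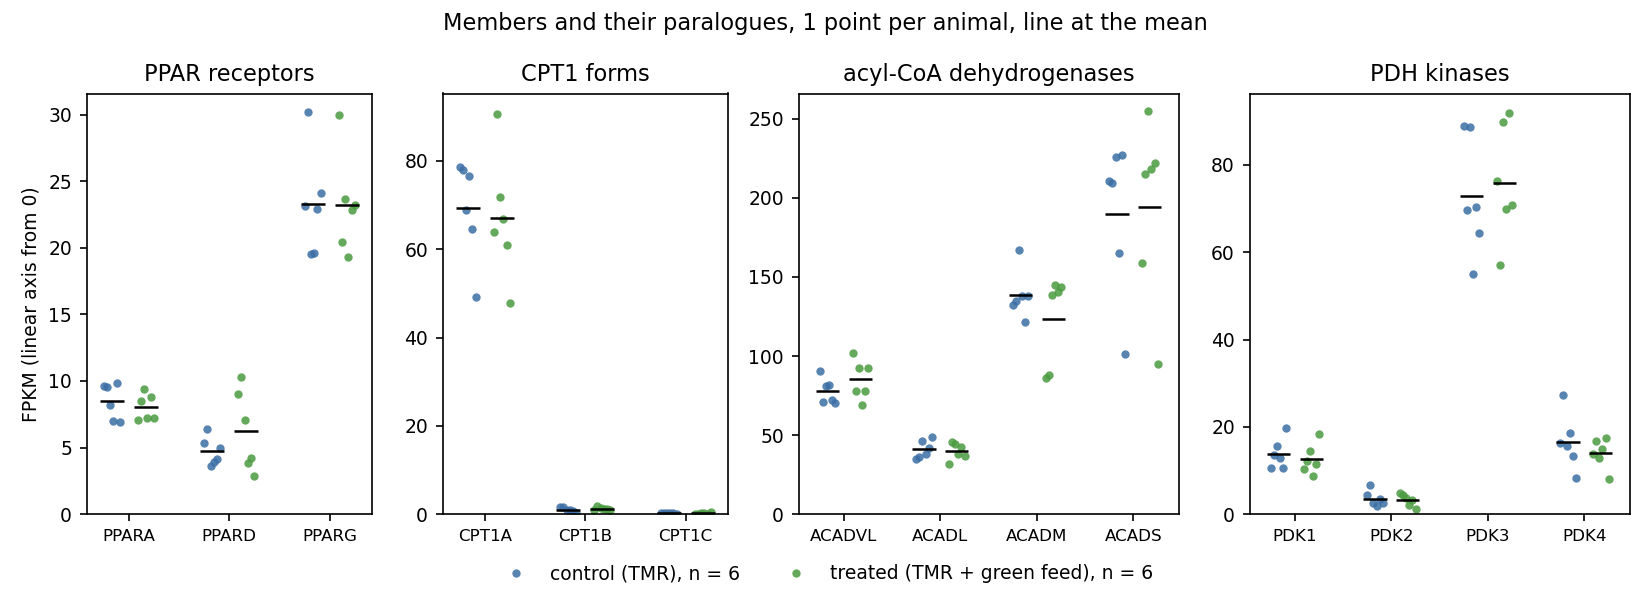
FPKM on linear axes from 0 for PPAR receptors, CPT1 forms, acyl-CoA dehydrogenases and PDH kinases, with 1 point per animal (blue, 6 control; green, 6 treated) and a line at each group mean. PPARG, CPT1A, ACADS and PDK3 had the highest mean of their families, and CPT1B and CPT1C lay near the bottom of the axis.

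HADHA (102398211) and HADHB (102397671) encode the α and β subunits of the trifunctional protein, and in the RefSeq gene table of another buffalo assembly (NDDB_SH_1) 0 genes lie between them. HADHA was 185 to 230.0 FPKM in the control group with a median of 205 FPKM, and 184 to 227 FPKM in the treated group with a median of 197 FPKM. The means of 205 ± 16.5 FPKM and 201 ± 17.8 FPKM (SD, n = 6 each) gave a log2 fold change of -0.03 (SE 0.10, 95% interval -0.23 to 0.18; exact permutation p = 0.699). HADHB was 124 to 153 FPKM in the control group with a median of 133 FPKM, and spread further in the treated group, from 113 to 182 FPKM with a median of 141 FPKM. Its highest value was that of treated replicate 6 and its lowest those of treated replicates 1 and 2. The means of 137 ± 12.6 FPKM and 141 ± 24.9 FPKM (SD, n = 6 each) gave a log2 fold change of 0.02 (SE 0.12, 95% interval -0.24 to 0.29; exact permutation p = 0.846). HADHA was higher than HADHB in 12 of 12 animals, by 1.47-fold on average (adjusted p = 0.000977, exact permutation). The ratio of HADHB to HADHA was not fixed, however, and ranged between animals from 0.566 to 0.831.

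PDK4 (102413185) had 16.3, 27.3, 15.6, 18.7, 13.3 and 8.23 FPKM in control replicates 1 to 6, and 13.9, 16.8, 12.9, 15.0, 17.4 and 8.09 FPKM in treated replicates 1 to 6. The highest value was that of control replicate 2, replicate 6 was the lowest of both groups, and the remaining values overlapped. The means were 16.6 ± 6.34 FPKM and 14.0 ± 3.37 FPKM (SD, n = 6 each), with a log2 fold change of -0.20 (SE 0.26, 95% interval -0.74 to 0.35; exact permutation p = 0.491). Without control replicate 2 the log2 fold change was -0.03, without treated replicate 6 it was -0.05, and without control replicate 6 it was -0.38. Among the kinases of pyruvate dehydrogenase, PDK3 had 74.4 FPKM and was 5.03-fold higher than PDK4 in 12 of 12 animals (adjusted p = 0.000627, exact permutation). PDK1, a kinase known to respond to hypoxia, had 13.2 FPKM and could not be separated from PDK4 (adjusted p = 0.404, exact permutation), and PDK2 was lowest with 3.42 FPKM.

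ANGPTL4 (102398854) was 5.60 to 7.43 FPKM in the control group with a median of 6.84 FPKM. The treated animals spread to both sides of this range, from 4.34 FPKM in replicate 6 to 8.71 FPKM in replicate 2, with a median of 5.87 FPKM. The means were 6.68 ± 0.794 FPKM and 6.17 ± 1.50 FPKM (SD, n = 6 each), with a log2 difference of -0.14 (SE 0.16, 95% interval -0.49 to 0.21; exact permutation p = 0.396). Without treated replicate 6 this difference was -0.05 and without treated replicate 2 it was -0.25. LPL, the lipase that the ANGPTL4 protein inhibits, was close to absent from the libraries. It had 0 reads in 4 of 6 control and 4 of 6 treated animals, where a count of 0 allows up to 3 reads, and at most 12 reads in any animal. ANGPTL8, a gene of the same family, had 0 reads in all 12 animals.

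Ratios within an animal do not depend on the scale of its library, and 4 of them were compared between the diets by an exact permutation test. HADHB to HADHA was 0.670 ± 0.0461 in control animals against 0.700 ± 0.108 in treated ones (SD, n = 6 each; exact permutation p = 0.613). CPT1A to CPT2, the outer to the inner enzyme of the shuttle, was 1.83 ± 0.359 and 1.83 ± 0.332, respectively (exact permutation p = 0.939 for n = 6 each). PDK4 to ANGPTL4 was 2.52 ± 1.01 and 2.28 ± 0.363 (exact permutation p = 0.827 for n = 6 each). ACADVL to ACADM had the largest difference, 0.565 ± 0.0738 against 0.735 ± 0.259, a log2 difference of 0.32 (SE 0.21, exact permutation p = 0.162, 0.648 adjusted over the 4 ratios). Its treated group held both the lowest ratio of all animals, 0.478, and the highest, 1.18. Without treated replicate 4 the log2 difference was 0.43 (exact permutation p = 0.039, not adjusted), and without other single animals it was as low as 0.17.

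Across the 12 animals, the 9 genes did not vary as one block. Of 36 pairs, 6 had a nominal permutation p-value below 0.05 for Pearson's r, and 0 remained after adjustment over the 36 (smallest adjusted p = 0.0557). By Spearman's rho 1 pair remained, ACADM and HADHB, with rho = 0.86 (permutation p = 0.0008, adjusted p = 0.0288) and r = 0.74 (permutation p = 0.00501, adjusted p = 0.0557). For this pair r was 0.64 in control animals against 0.86 in treated ones, and without treated replicates 1 and 2 it was 0.50 (permutation p = 0.137), so that the relation rested in part on these animals. CPT1A and PDK4 had r = 0.79 and rho = 0.64 (permutation p = 0.00308 and 0.0289, adjusted p = 0.0557 and 0.347). This relation rested on control replicate 6 and treated replicate 6, without which r was 0.40. HADHA and PDK4 were opposed, with r = -0.74 and rho = -0.75 (permutation p = 0.00431 and 0.00684, adjusted p = 0.0557 and 0.123). Without control replicate 6 and treated replicate 3 r was -0.66. In each such check, the 2 animals farthest from the median of the first gene named were left out. Extremes of the second gene could stay in, here treated replicate 6, the lowest of PDK4. CPT1A and HADHB were also opposed, with r = -0.74 and rho = -0.60 (permutation p = 0.00619 and 0.0429, adjusted p = 0.0557 and 0.386), and r was -0.47 without the 2 farthest animals. The subunits HADHA and HADHB had r = 0.50 and rho = 0.45 (permutation p = 0.0992 and 0.147, adjusted p = 0.357 and 0.446). For PPARA, r with the other 8 genes lay between -0.28 and 0.48, with adjusted p-values of at least 0.38.

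**Figure D4:**
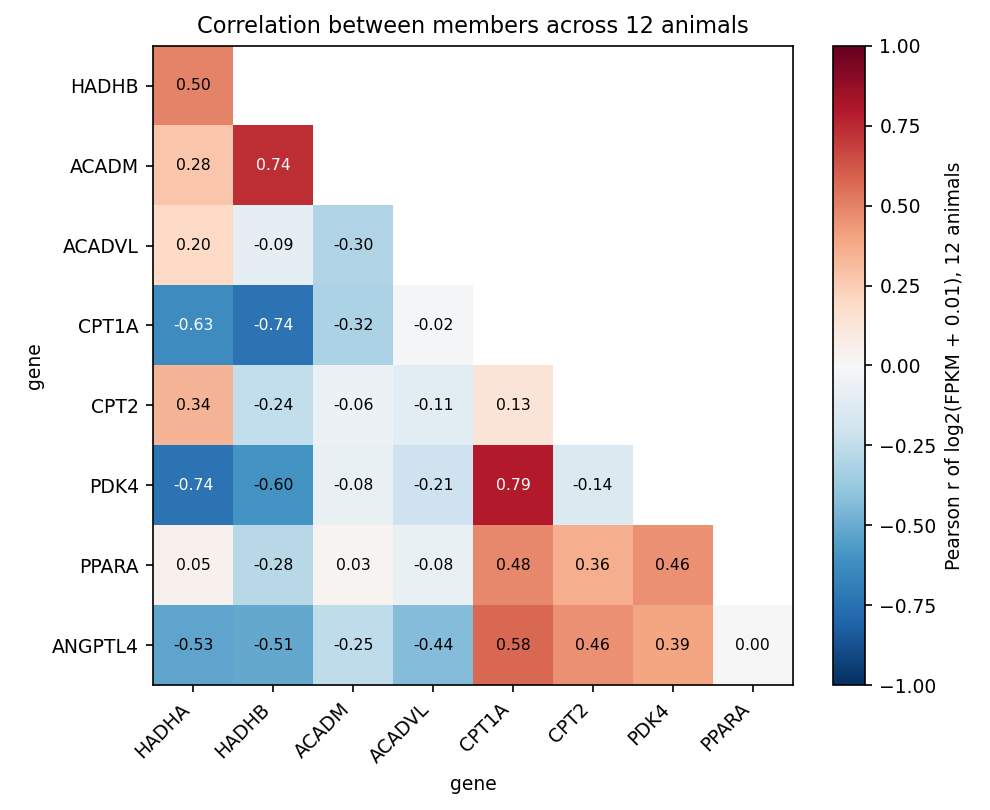
Pearson's r between the log2(FPKM + 0.01) values of each pair of the 9 genes over 12 animals, with red for positive and blue for negative values. The highest value is that of CPT1A and PDK4 (0.79), and CPT1A stands opposed to HADHA (-0.63) and HADHB (-0.74).

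Levels of cell type markers moved with some of these genes. Over 54 relations, 9 genes with 6 marker lists, 3 had an adjusted p-value below 0.05 for r. ACADM followed the mean level of fibroblast markers with r = 0.87 and rho = 0.74 (permutation p = 0.00029 and 0.00777, adjusted p = 0.00918 and 0.14), and without treated replicates 1 and 2 r was 0.64. HADHB followed the same markers with r = 0.83 and rho = 0.87 (permutation p = 0.00095 and 0.00046, adjusted p = 0.0171 and 0.0248). Within the control group this r was 0.94 and within the treated group 0.91. Without treated replicates 1 and 6, the farthest from the HADHB median, it was 0.83, with treated replicate 2, also low in both, kept in. HADHB was opposed to the mean level of squamous epithelium markers, with r = -0.84 and rho = -0.76 (permutation p = 0.00034 and 0.00591, adjusted p = 0.00918 and 0.14), and r was -0.60 without the 2 farthest animals. PDK4 had r = 0.76 with the epithelium markers (permutation p = 0.00597, adjusted p = 0.0806), with rho = 0.53 (permutation p = 0.078, adjusted p = 0.526), which rested on control replicate 6 and treated replicate 6, the animals with the lowest summed epithelium markers (2879 and 3183 FPKM). Without them r was 0.13. These relations were chosen after the levels had been seen, and the part of the cell types in them was not tested.

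**Figure D5:**
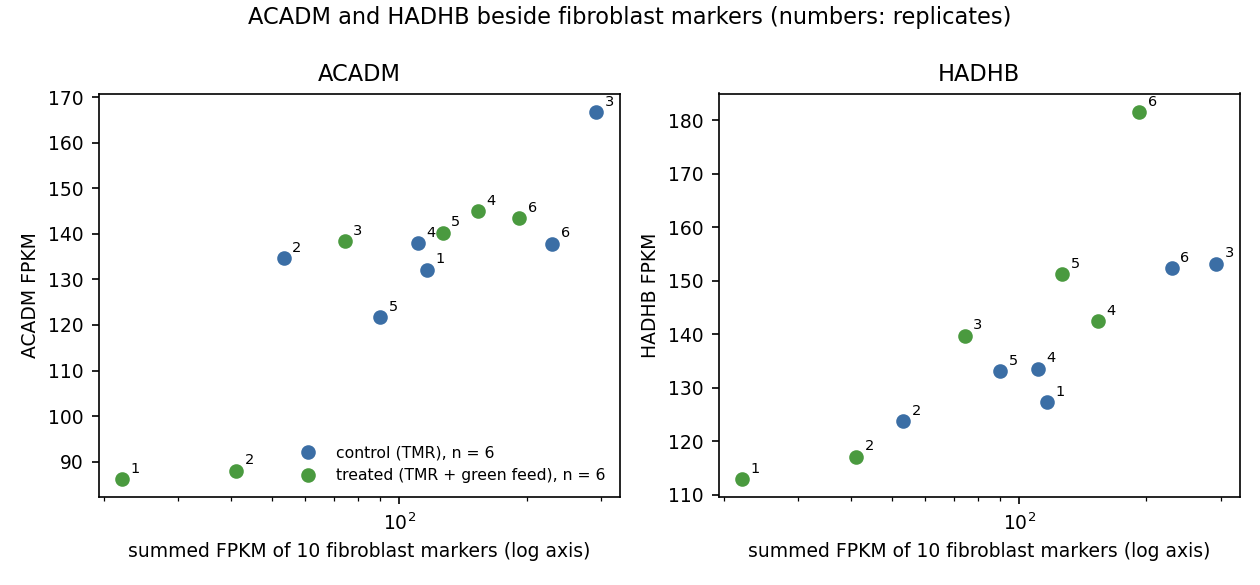
FPKM of ACADM and HADHB against the summed FPKM of 10 fibroblast markers on a log axis, with 1 point per animal (blue, 6 control; green, 6 treated) labelled by its replicate. Treated replicates 1 and 2 have the lowest marker sums and the lowest values of both genes, and HADHB is higher in animals with higher sums (r = 0.83 on the log scale, for the mean level of the markers).

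For each gene, all other genes tested were ordered by Pearson's r of their deviations from the group means over the 12 animals. These values are a description, since the highest of 12759 values is high by choice. HADHB was closest to CTNNB1 (r = 0.96), which encodes β-catenin. ACADM was closest to the ribosomal protein gene RPL27 (r = 0.98), followed by LOC102389674 and RPL24. CPT1A was closest to IBA57, CAPN15 and CEP164, and PDK4 to LOC102404258, BABAM1 and U2AF1L4, with r from 0.94 to 0.97. The nearest genes of HADHA were WDR5B, LOC112578694 and LOC102397690, those of PPARA were FNDC10, TMEM81 and THAP3, and those of ANGPTL4 were DCAF6, SKAP1 and MTRR, with r from 0.88 to 0.92. CPT2 had SHLD1, LOC112582669 and USP40 (0.83 to 0.89), and ACADVL had ALKBH1, USB1 and LOC102396103 (0.78 to 0.82). None of the 9 genes was among the 3 nearest of another. The closest to this was HADHB, which stood at place 126 of 12759 in the order of ACADM.

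The wider pathway was read from 7 lists with 121 genes, of which 115 were found in the table and 94 were tested. Of the 94, 0 had a nominal limma p-value below 0.05 in either direction, and 45 had positive and 49 negative log2 fold changes, with a median of -0.01. The smallest limma p-value was 0.0636, that of ACADSB, and for 85 of the 94 genes the 95% interval excluded a 2-fold difference. Among partners and coregulators of the PPARs, 15 of 17 genes were tested, 12 with positive log2 fold changes and a median of 0.04. RXRG, a retinoid X receptor, had 0 reads in every animal, and PPARGC1A, the coactivator best known from muscle and brown fat, had at most 5 reads. Its relative PPARGC1B had 24.2 FPKM, and RXRA and RXRB had 20.5 and 13.1 FPKM.

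Among genes of fatty acid uptake and activation, 12 of 18 were tested, with 3 positive and 9 negative log2 fold changes (median -0.04). The most abundant of them, the fatty acid-binding protein gene FABP5, had 779 ± 123 FPKM in control and 904 ± 189 FPKM in treated buffaloes (SD, n = 6 each), with a log2 difference of 0.20 with an interval from -0.13 to 0.54. The liver form FABP1 had 0 reads in all animals. In the other carnitine shuttle genes, 10 of 12 were tested, 5 with positive and 5 with negative values (median -0.02), and the transporter SLC25A20, which exchanges acylcarnitine for carnitine, had 23.5 FPKM.

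All 20 of the other mitochondrial β-oxidation genes found in the table were tested, 6 with positive and 14 with negative log2 fold changes, a median of -0.04 and a range from -0.44 to 0.11. Enzymes of the later steps on medium and short chains had higher means than the trifunctional subunits. These means were 1155 FPKM for the thiolase ACAA2, 827 FPKM for the hydratase ECHS1 and 488 FPKM for the dehydrogenase HADH. The lowest value of the list belonged to ACADSB, a dehydrogenase of short branched chains, which was chosen after its values were seen. It had 21.5 ± 4.60 FPKM in control animals against 16.3 ± 5.14 FPKM in treated ones (SD, n = 6 each), and all 6 treated animals lay below the control median (log2 fold change -0.44, SE 0.22, exact permutation p = 0.09).

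In the peroxisomal list, 15 of 18 genes were tested, 9 with positive and 6 with negative values and a median of 0.01, between -0.14 for HSD17B4 and 0.34 for SCP2. All 11 genes of pyruvate dehydrogenase and its regulators were tested, 4 with positive and 7 with negative values and a median of -0.03. Of the lipase and other PPAR target genes, 11 of 23 were tested, 6 with positive and 5 with negative values and a median of 0.02. VNN1 was not found by its symbol, and LOC102411389, the name the study equates with it, was chosen after its values were seen. The study reports LOC102411389 as up-regulated in treated animals, by nominal p-values in EdgeR and also by NOISeq. In the FPKM, the mean of LOC102411389 was 3.25 FPKM in control and 8.10 FPKM in treated buffaloes. The limma fit had the same direction, with a log2 fold change of 0.92, but its 95% interval from -0.15 to 1.99 includes 0. The reason for this difference between the methods was not tested. Some PPAR targets of liver, fat and muscle, namely PLIN5, FGF21 and UCP3, had 0 reads in all 12 animals.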

How the data were processed

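The authors trimmed the reads of each stranded library with Trimmomatic 0.39, aligned them to the UOA_WB_1 genome with STAR 2.5.2b and counted fragments per gene by strand with featureCounts 2.0.0. The authors deposited FPKM values for 34037 genes, and the tool and gene lengths behind them are not given in the sources used here. Sample titles named the animal for 12 columns, and 4 other columns without a matching sample were not used. Replicate numbers were taken from the sample descriptions. The numbers in the titles differ from them for control replicate 6 and for all treated replicates. Within a gene the FPKM were whole multiples of the value of 1 read. This held to within 0.01 reads for 22972 of 22972 genes above 0 (100.0%) and gave the reads per animal and the gene lengths. Counted fragments, 10531541 to 12948372 per animal, set the precision, and each of the 66 pairs of libraries differed by more than sampling noise.

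Genes with at least 40 depth-scaled reads in at least 1 animal (12760 genes) were tested on log2(FPKM + 0.01) by lmFit and trended eBayes of limma 3.58.1 (R 4.3.3), and p-values were adjusted after Benjamini-Hochberg over these genes. Fold changes of genes with few reads depend on the pseudocount. That of CPT1B was 0.57 at 0.01, 0.49 at 0.1 and 0.23 at 1 on the log2 scale. At 0.01 a count of 0 weighs heavily. BBOX1, with 0 to 51 reads, had a log2 fold change of -0.71 at means of 0.957 FPKM (control) and 0.860 FPKM (treated). The unit is not counts, so that no count model was used for the main fit, and the reads entered only an alternative fit with voom. Single genes, ratios and correlations were tested by two-sided permutation in Python 3.11.15 with numpy 2.4.6, pandas 2.3.3 and scipy 1.17.1, by exact enumeration between groups and within animals and with 100000 resamples for correlations. The limma script, and the recovery of reads at known library totals, were checked on simulated data. The step that worked out the totals from the FPKM was not checked in this way. Plots were made in matplotlib 3.10.9.

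The 9 genes, the 7 wider lists and the 8 marker lists were chosen with earlier results of these data known. Named were the 9 genes, their paralogues, LPL, every gene of a wider list with a nominal p-value below 0.05, and the 3 genes nearest to each of the 9. Some genes under this rule or in the lists are not reported here. Other genes of the lists were named for their level or role after their values were seen. Symbols were taken from the table, and the identifiers of all 9 genes matched the RefSeq gene table of NDDB_SH_1. Its gene positions were used only to look for genes between HADHA and HADHB. The alternatives were pseudocounts of 0.1 and 1, no filter, at least 0.1 FPKM in at least 6 animals, median-ratio and TMM scaling, robust eBayes, voom, the replicate number as a block, leaving out single animals, and the mean level of smooth muscle and fibroblast markers as a covariate (called stromal). The relations with marker lists and the comparisons between paralogues were added after the data were seen.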

Additional observations from a re-analysis of the deposited data

Results flagged for a closer look

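In 46 groups of 6 animals, made up of the values of the named genes in either diet, 2 held an animal that lay apart from the other 5 by more than the limit of Dixon's test at 95%. Chance flags about 1 in 20 groups. ACADM in control replicate 3 had 166.8 FPKM, whereas the other control animals lay between 121.8 and 138.0 FPKM. This animal also had the highest summed fibroblast markers, 292 FPKM, and their part in the value was not tested. LPL in treated replicate 5 had 0.576 FPKM, from 12 reads, with the other treated animals between 0 and 0.189 FPKM.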

How the results depend on the processing

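Of the 9 genes, a nominal p-value below 0.05 was found for 0 in the limma fit and in each of 22 alternatives, and 192 of 198 values kept their direction. With stromal markers as a covariate ACADM (0.0805), HADHA (0.00603), PPARD (-0.204), PPARG (-0.121) and ACADL (0.0286) turned direction, and PPARG was -0.00433 with median-ratio scaling. Leaving out single animals gave log2 fold changes of -0.151 to 0.0354 for CPT1A, -0.0629 to 0.00642 for HADHA, -0.0525 to 0.0844 for HADHB, -0.0761 to 0.0788 for PPARG, -0.0874 to 0.0184 for ACADL, -0.157 to 0.206 for ACADS, -0.316 to 0.11 for PDK2 and -0.0150 to 0.141 for PDK3. The log2 differences of the ratios lay between -0.000543 and 0.11 for HADHB to HADHA, -0.102 and 0.0857 for CPT1A to CPT2, 0.17 and 0.431 for ACADVL to ACADM, and -0.271 and 0.116 for PDK4 to ANGPTL4.

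Over all genes, 162 had a nominal p-value below 0.05, against 562 with no filter, 301 with the filter of 0.1 FPKM in 6 animals, 369 with the stromal covariate and 144 to 331 with single animals left out (331 without treated replicate 6). Adjusted p-values below 0.05 were given to 0 genes in every one of these fits. In the wider lists the count of 0 became 1 with no filter (PPARGC1A, with 1 to 5 reads in control and 0 to 2 in treated animals), 2 with the stromal covariate (FABP5 and CAT), and 0 to 1 with single animals left out (ACADSB without control replicate 3, treated replicate 4 or treated replicate 5, TXNIP without control replicate 6, ACOT13 without treated replicate 1). With group means removed, 3 of 36 pairs had an adjusted permutation p-value below 0.05 (ACADM and HADHB, HADHA and PDK4, CPT1A and PDK4), and 0 with TMM scaling or without the 2 farthest animals. The cause of these changes was not tested.

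Same-numbered animals of both groups correlated by 0.211 on average (-0.0128 to 0.411), over 0.1 in 4 of 6 pairs, against -0.0391 on average for other pairs, and 7 of 12 animals correlated best with their own number. This is a hint from the data that numbers may mark something shared. Since the labels name nothing shared, the titles number the animals otherwise, and not every pair was over 0.1, the replicate numbers were not taken as a pairing. With the replicate block, 326 genes had a nominal p-value below 0.05, 1 gene of the wider lists (ACADSB) and 0 of the 9 genes. Counts of 111 to 226 reads limit the precision of PPARA and ANGPTL4.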
